A study of Homo sapiens with 18 samples.

Results

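Purine and pyrimidine metabolism was described here through 36 genes that encode the enzymes making, converting and recycling nucleotides in human cells. The members are a list of gene names, matched to the symbols of the deposited table, which held 13358 genes, and all 36 were found. They fall into 12 genes of de novo purine synthesis, 5 of de novo pyrimidine synthesis, 10 of deoxynucleotide supply and 9 of salvage and nucleotide phosphorylation. Poly(A) RNA was measured by strand-specific Illumina sequencing in HUDEP1, an immortalised human erythroid progenitor line that is kept dividing by viral oncogenes under doxycycline control. Here 3 clones of the line were compared, 1KI9 and 1D5 with GATA1s, the short form of the erythroid transcription factor GATA1 that lacks its N-terminus, and FL with the full-length form, GATA1FL. Each clone was sampled in a differentiation condition at day 4 and in an expansion condition, with 3 libraries per group, 6 groups and 18 libraries in all. All groups received doxycycline at 1 µg/mL, EPO at 3 U/mL and SCF at 50 ng/mL. Day-4 cells had these in IMDM with serum, insulin, heparin and holo-transferrin. For expansion the base was SFEM II, and dexamethasone was added at 1 µM. Full-length GATA1 was represented by 1 clone, so genotype and clone cannot be told apart in any comparison with FL. Nothing in the labels ties the 3 libraries of a group to independent cultures. The p-values therefore rest on variation among libraries, and that variation may be technical.

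Purines are assembled on a ribose phosphate that PRPP synthetase supplies, through a chain of enzymes that ends in inosine monophosphate, which is then turned into adenine or guanine nucleotides. Pyrimidines are built as a ring first, by CAD, DHODH and UMPS, and aminated to cytidine triphosphate by CTP synthase. Ribonucleotide reductase turns ribonucleotides into the deoxynucleotides needed for DNA replication, and salvage enzymes recover bases and nucleosides. Mature red cells cannot make purines de novo and rely on salvage, and inherited loss of the pyrimidine nucleotidase NT5C3A causes a haemolytic anaemia in which pyrimidine nucleotides build up in red cells.

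The stretches upstream of 4 members, and the stretch between a divergent pair of members, are shown because the levels of these genes carry the results given further on. PRPS1, CAD and NME1 passed the day-4 test in both GATA1s clones and the test of a difference between conditions under every scaling tried, NT5C3A passed against FL in both conditions, and PPAT and PAICS are transcribed away from each other and both passed in expansion. Sequences are from RefSeq, assembly GRCh38.p14, 5′ to 3′ on the strand of the gene, cropped to bases outside all exons of GENCODE release 29. Capitals mark CCAAT on either strand, the motif bound by NF-Y, where it occurs in the cropped stretch. CAD has this motif in the 250 bases before its RefSeq start, but not wholly within the stretch shown.
PRPS1, chrX:107628260-107628423, plus strand: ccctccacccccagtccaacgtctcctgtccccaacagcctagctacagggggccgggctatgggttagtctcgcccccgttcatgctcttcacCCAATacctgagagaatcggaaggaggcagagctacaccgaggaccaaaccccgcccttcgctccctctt
CAD, chr2:27217179-27217368, plus strand: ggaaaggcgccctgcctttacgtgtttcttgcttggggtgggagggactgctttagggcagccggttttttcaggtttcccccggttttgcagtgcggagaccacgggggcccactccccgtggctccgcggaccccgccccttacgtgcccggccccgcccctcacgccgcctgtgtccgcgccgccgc
NME1, chr17:51153309-51153535, plus strand: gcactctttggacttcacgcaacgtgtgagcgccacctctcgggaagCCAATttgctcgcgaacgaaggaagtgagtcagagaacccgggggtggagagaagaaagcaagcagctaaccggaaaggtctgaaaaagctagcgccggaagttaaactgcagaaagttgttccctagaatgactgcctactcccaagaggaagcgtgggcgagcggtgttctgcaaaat
NT5C3A, chr7:33062798-33063026, minus strand: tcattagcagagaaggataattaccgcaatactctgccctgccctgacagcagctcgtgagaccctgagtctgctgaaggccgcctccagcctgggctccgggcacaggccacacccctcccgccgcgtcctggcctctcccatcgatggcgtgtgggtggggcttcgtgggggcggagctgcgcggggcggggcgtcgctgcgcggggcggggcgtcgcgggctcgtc
Between PPAT and PAICS, chr4:56435616-56435740, strand of PAICS: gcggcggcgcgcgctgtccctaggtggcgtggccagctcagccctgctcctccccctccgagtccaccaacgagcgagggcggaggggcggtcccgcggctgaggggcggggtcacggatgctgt
In windows of 250 bases before each RefSeq start, available for 33 members with 52 starts, CCAAT on either strand lay in 16 windows (30.8%), against 32.0% of the 35116 windows of all genes. The members shown are examples. ADSS, DCTD and APRT, also called higher at day 4 under every scaling, had no CCAAT in these windows. Of the others so called, ADK had it and RRM2B had no window. The E-box CACGTG, the site bound by MYC with MAX, lay in 4 member windows (7.69%) against 6.34% of all windows. The GATA motifs AGATAA and TGATAA, on either strand, lay in 3 member windows (5.77%) against 14.6% of all windows. These are letter matches in fixed windows, and windows of neighbouring starts of a gene overlap.

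The deposited values were TPM in expansion, with 943734 to 950736 per library summed over the listed genes, and TPM-like values on a further scale at day 4, with sums of 814583 to 1081251. Depth is unknown, and levels set across the conditions also compare separately scaled parts of the table. Total GATA1 transcripts, which do not separate the 2 forms of the protein, ranged from 901 to 941 in 1KI9, 1033 to 1102 in 1D5 and 221 to 236 in FL at day 4, and from 614 to 662 in 1KI9, 634 to 680 in 1D5 and 143 to 168 in FL in expansion. All 8 erythroid markers, among them KLF1 and the gamma globins, were present in every group. Their calls against FL were 8 lower of 8 in both GATA1s clones at day 4 and 2 lower of 8 in expansion. Globin genes took 12.4 to 13.3% of the day-4 total in 1KI9, 19.3 to 20.6% in 1D5 and 38.2 to 39.4% in FL. The 6 monocyte and neutrophil markers in the table summed at day 4 to 396 to 418 in 1KI9, 329 to 351 in 1D5 and 43.5 to 47.1 in FL, and in expansion to 186 to 233, 41.3 to 53.6 and 8.2 to 38.8 in the same order. CD68 alone made up most of the day-4 sums, with 369 to 389 in 1KI9, 319 to 343 in 1D5 and 40.3 to 43.4 in FL. The highest FL sum in expansion came from LYZ, at 31.3 in library 2. CSF1R and ELANE were listed at 0 in FL in expansion, and CSF1R and TYROBP at day 4. Of 4 markers of mast cells, basophils and eosinophils, TPSB2, FCER1A and HDC were higher in both GATA1s clones at day 4 and PRG2 was lower. TPSB2 ranged there from 257 to 275.4 in 1KI9, 143.6 to 153 in 1D5 and 39.0 to 43.2 in FL, and PRG2 from 29.1 to 31.6, 16.0 to 17.7 and 302 to 316 in the same order. In expansion 2 of the 4 were higher and PRG2 was lower. The part of either set of markers in the results was not tested. The 9 markers of dividing cells, MKI67, TOP2A, PCNA and the MCM2 to MCM7 genes, summed at day 4 to 422 to 428 in 1KI9, 421 to 431 in 1D5 and 455 to 465 in FL, and in expansion to 990 to 1149, 1170 to 1423 and 1299 to 1540. One FL expansion library, number 1, stood apart with 10.6% of its total in globins, against 5.55% and 5.73% in the other FL expansion libraries. To a lesser degree, 1D5 expansion library 3 also differed, with 6.83% against 4.60% and 4.48% in the other 1D5 expansion libraries.

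Between expansion and day 4, nearly the whole nucleotide module fell in each clone, with the lowest median in FL. Differences were tested with limma across 11110 genes on log2(value + 1), a scale that shrinks differences of genes with low values, with Benjamini-Hochberg adjustment and a threshold of 0.05. In 1KI9, 34 of 36 members were lower at day 4 and none was higher, where 52.2% of all genes were lower and 22.2% higher (74.4% in either direction). In 1D5, 33 were lower and 1 higher, against 47% and 31.9% of all genes (78.9% in either direction), and in FL 35 were lower and 1 higher, against 57.2% and 26.5% of all genes (83.7%). The median log2 difference of the members, day 4 minus expansion, was -1.08 in 1KI9, -1.24 in 1D5 and -1.58 in FL, while the medians over all genes were -0.25, -0.15 and -0.38 in the same order. Fewer dividing cells and less RNA of these genes per cell cannot be told apart in bulk RNA, and all 9 markers of dividing cells also fell in each clone. Values were also rescaled in 3 other ways, to an equal total over all listed genes, by median-of-ratios size factors, and to a common sum without globin and mitochondrially encoded genes. Under all of these, 28 members in 1KI9, 30 in 1D5 and 31 in FL were called lower.

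**Figure D1:**
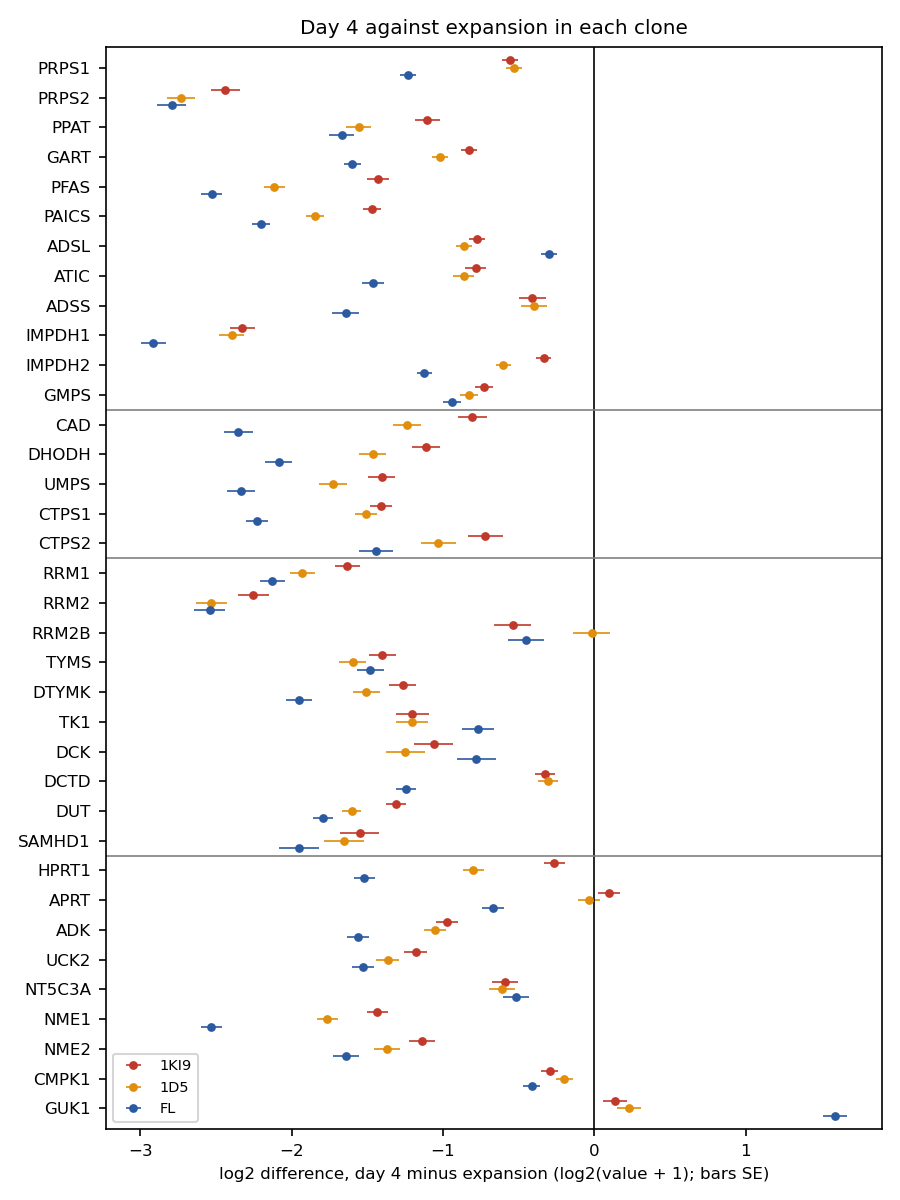
Log2 difference of each member between day 4 and expansion, on log2(value + 1), with points for clones 1KI9, 1D5 and FL and bars for SE. Horizontal lines separate de novo purine, de novo pyrimidine, deoxynucleotide and salvage genes from top to bottom. Almost all points lie left of 0, the FL point is leftmost for all purine and pyrimidine genes but ADSL, and GUK1 in FL lies far to the right at 1.59.

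The summed level of the 12 purine synthesis genes at day 4 was 923 ± 10.2 (SD, n = 3) in 1KI9, 836 ± 3.24 in 1D5 and 737 ± 9.46 in FL, on the TPM-like scale. In expansion it was 1563 ± 74.4 TPM in 1KI9, 1672 ± 63.3 in 1D5 and 1894 ± 103 in FL. The order of the clones at day 4 was thus the reverse of that in expansion on the deposited scale, but with median-of-ratios scaling the day-4 sums were 929 ± 27.1 in 1KI9, 873 ± 32.9 in 1D5 and 969.96 ± 15.01 in FL, with FL highest as in expansion. As a share of the expansion level, 59.1% remained at day 4 in 1KI9, 50.0% in 1D5 and 38.9% in FL. For pyrimidine synthesis the shares were 43.5% in 1KI9, 34.5% in 1D5 and 19.5% in FL, from sums of 71.1 ± 2.95, 66.2 ± 3.69 and 44.3 ± 1.23 at day 4 and 163 ± 10.7, 192 ± 4.57 and 227 ± 13.3 TPM in expansion. Deoxynucleotide genes kept 39.0% in 1KI9, 33.0% in 1D5 and 28.95% in FL, and salvage genes and kinases kept 61.7%, 54.2% and 47.9%. With median-of-ratios scaling the purine shares were 72.7%, 56.3% and 54.0% and the pyrimidine shares 53.5%, 38.7% and 27.1%, while deoxynucleotide and salvage genes kept the smallest share in 1D5. A few abundant genes set these sums, so they describe RNA amount rather than the typical gene. In the purine set IMPDH2 was the largest, and in the salvage set NME2 was the largest in expansion. At day 4 the largest salvage mean was that of APRT in 1KI9 and 1D5, at 234 and 224, and of GUK1 in FL, at 225. NME2 had 216, 220 and 212 there in the same clones.

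**Figure D2:**
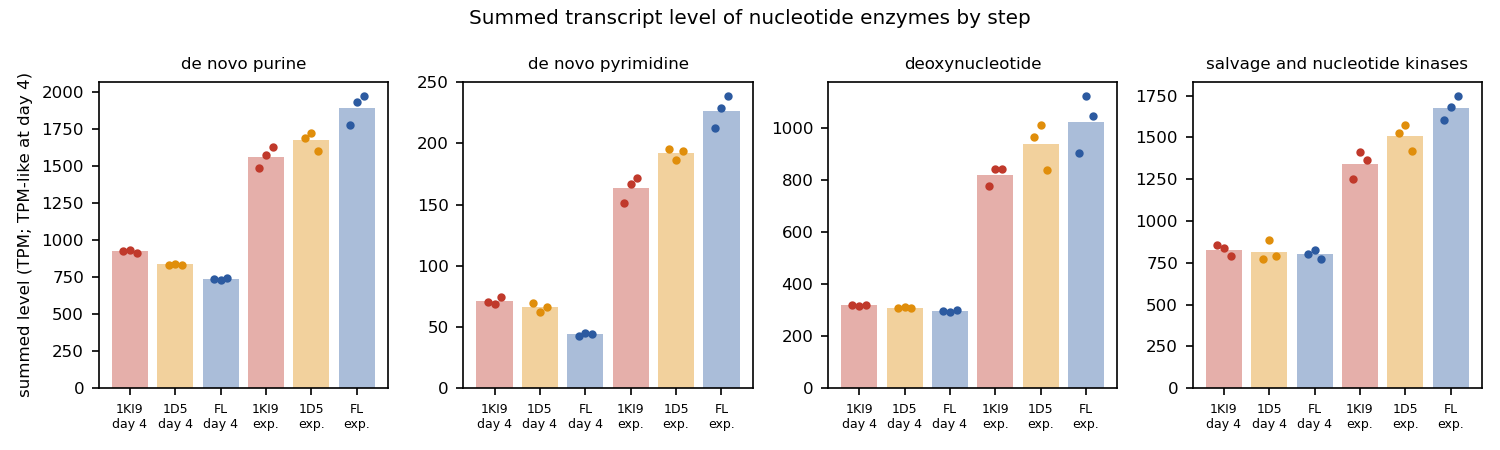
Summed level of the members of each step in every library, in TPM in expansion and TPM-like units at day 4, with bars for the mean of 3 libraries and points for single libraries of 1KI9, 1D5 and FL. In expansion the FL mean is highest in all 4 panels, although the deoxynucleotide sums of FL and 1D5 libraries overlap. At day 4, on the deposited scale, the pyrimidine and purine sums are lowest in FL, while the salvage sums of the 3 clones lie close together.

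In each clone IMPDH1, PRPS2 and RRM2 were among the members with the largest falls on the deposited scale. IMPDH1, the less abundant IMP dehydrogenase, changed by -2.33 ± 0.08 in 1KI9, -2.40 ± 0.08 in 1D5 and -2.91 ± 0.08 in FL (log2 difference ± SE). PRPS2, an isoform of PRPP synthetase, changed by -2.44 ± 0.10, -2.73 ± 0.10 and -2.79 ± 0.10 in the same clones. RRM2, the reductase subunit made in S phase, changed by -2.25 ± 0.10, -2.53 ± 0.10 and -2.54 ± 0.10. Against this, RRM2B, the reductase subunit that also serves resting cells, changed by -0.54 ± 0.12 in 1KI9, -0.02 ± 0.12 in 1D5, where it was not called, and -0.45 ± 0.12 in FL. APRT, which salvages adenine, was called lower in FL alone, at -0.67 ± 0.07, with 0.10 ± 0.07 in 1KI9 and -0.04 ± 0.07 in 1D5. It passed the test, given further on, of whether the difference of the GATA1s clones from FL itself differed between conditions. GUK1, guanylate kinase, went the other way and was higher at day 4 in FL by 1.59 ± 0.08 and in 1D5 by 0.23 ± 0.08, with 0.14 ± 0.08 in 1KI9, which was not called. The directions of ADSL and CMPK1 in FL, RRM2B, APRT and CMPK1 in 1D5, and IMPDH2, DCTD, HPRT1 and CMPK1 in 1KI9 turned under at least 1 other scaling.

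At day 4, more members were higher than lower in the GATA1s clones relative to FL, as were more genes of the whole table. Of the 36 members, 18 were higher and 5 lower in both clones, where 51.2% of all genes were higher and 14.3% lower, so the member counts lay near the background. The median member difference, the mean of the clones minus FL, was 0.26, and the median over all genes was 0.29. Median-of-ratios size factors were also applied, and the all-gene median moved to -0.02 and the members called split into 8 higher and 16 lower, with 26.4% and 31.3% of all genes. An equal total per library gave 28 higher and 3 lower, with 69.1% and 7.82% of all genes. The members called under the deposited values and all 3 other scalings were 8 higher, PRPS1, ADSS, CAD, RRM2B, DCTD, APRT, ADK and NME1, and 3 lower, ADSL, NT5C3A and GUK1. Both clone differences use the same 3 FL libraries. In each of these 11 genes, the 6 GATA1s libraries lay wholly above or wholly below the 3 FL libraries, as they did for 21 members above FL and 5 below in all, against 54% and 16% of all genes.

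In the purine set, ADSS, whose product takes inosine monophosphate towards AMP, had 26.8, 25.7 and 26.9 TPM-like units in the 1KI9 libraries, 23.5, 19.9 and 22.9 in 1D5 and 9.87, 10.6 and 11.3 in FL. The lowest GATA1s library was above the highest FL library, and the mean of the clones exceeded FL by 1.12 ± 0.07 (SE; adjusted p = 2.28e-10). ADSL, which acts both in the synthesis of inosine monophosphate and in the next step of the same AMP branch, had 89.8, 97.5 and 87.9 TPM-like units in the 1KI9 libraries, 85.3, 84.6 and 84.5 in 1D5 and 148, 148 and 151 in FL. All FL libraries were higher, and the difference was -0.75 ± 0.05 (SE; adjusted p = 7.27e-11), so the consecutive enzymes of the AMP branch differed from FL in opposite directions. The ADSS gene lies at chr1:244408494-244452134 and ADSL at chr22:40346500-40390463 (hg38).

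PRPS1, which makes the activated ribose phosphate, had 54.3, 56.1 and 55.4 TPM-like units in the 1KI9 libraries, 53.5, 53.5 and 55.5 in 1D5 and 36.7, 37.0 and 35.9 in FL, with no overlap between clones and FL and a difference of 0.57 ± 0.05 (SE; adjusted p = 3.33e-09). IMPDH2, the main IMP dehydrogenase on the way to guanine nucleotides, had 395, 395 and 384 TPM-like units in the 1KI9 libraries, 329.9, 351 and 327 in 1D5 and 249, 245 and 249 in FL. GART, an enzyme with several activities early in the chain, had 87.5, 87.4 and 89.1 TPM-like units in the 1KI9 libraries, 86.5, 80.1 and 83.2 in 1D5 and 63.8, 62.8 and 64.8 in FL. In both genes FL was lowest in every library, with differences of 0.55 ± 0.04 and 0.42 ± 0.05. ATIC, which closes the purine ring, had 82.5, 83.8 and 82.8 TPM-like units in the 1KI9 libraries, 79.7, 80.2 and 84.7 in 1D5 and 64.5, 59.6 and 63.2 in FL, a difference of 0.39 ± 0.06. The calls of IMPDH2, GART and ATIC were lost under median-of-ratios scaling.

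The other purine genes did not pass in both clones at day 4. PFAS, an enzyme in the middle of the chain, had 23.7, 22.6 and 23.6 TPM-like units in the 1KI9 libraries, 16.9, 16.9 and 17.8 in 1D5 and 15.97, 16.9 and 14.8 in FL. It was called in 1KI9, at 0.53 ± 0.07, and not in 1D5, at 0.11 ± 0.07. PPAT, PAICS, PRPS2, IMPDH1 and GMPS, which makes guanine nucleotides from xanthosine monophosphate, had mean differences between -0.10 and 0.19.

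Of the pyrimidine set, 4 of 5 genes were higher in both clones at day 4 and none was lower, with a median difference of 0.52. Over all genes, 51.2% were higher and 14.3% lower, with a median of 0.29. CAD, the multifunctional enzyme of the first steps, at chr2:27217390-27243943, had 26.5, 23.7 and 28.5 TPM-like units in the 1KI9 libraries, 22.4, 19.6 and 22.2 in 1D5 and 13.2, 11.4 and 13.5 in FL. The lowest GATA1s library was above the highest FL library, with a difference of 0.85 ± 0.08 (SE; adjusted p = 3.00e-08). UMPS, which makes uridine monophosphate, had 19.1, 20.9 and 19.2 TPM-like units in the 1KI9 libraries, 21.7, 19.3 and 19.9 in 1D5 and 10.8, 15.2 and 13.8 in FL, a difference of 0.57 ± 0.08. CTPS1, a CTP synthase, had 15.6, 14.2 and 15.6 TPM-like units in the 1KI9 libraries, 16.4, 15.4 and 16.1 in 1D5 and 12.1, 11.4 and 11.4 in FL, a difference of 0.39 ± 0.06. CTPS2, its paralogue, was higher by 0.52 ± 0.10. DHODH, the mitochondrial enzyme of the pathway, had 5.03, 4.53 and 5.75 TPM-like units in the 1KI9 libraries, 4.53, 4.76 and 4.35 in 1D5 and 4.04, 4.26 and 3.44 in FL. It was called in 1KI9, at 0.31 ± 0.09, and not in 1D5, at 0.18 ± 0.09, although no GATA1s library fell into the FL range. Of these calls, CAD alone held under median-of-ratios scaling.

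Among the 10 deoxynucleotide genes, 5 were higher and 2 lower in both clones at day 4, beside 51.2% and 14.3% of all genes. The largest positive difference from FL was in DCTD, the deaminase that feeds thymidylate synthesis, which had 44.7, 45.5 and 44.1 TPM-like units in the 1KI9 libraries, 39.6, 40.5 and 39.8 in 1D5 and 22.4, 23.9 and 23.4 in FL. Its libraries were tight within each clone, and the difference was 0.84 ± 0.06 (SE; adjusted p = 3.04e-10). RRM2B, at chr8:102204502-102239118, had 25.6, 24.5 and 28.6 TPM-like units in the 1KI9 libraries, 22.9, 16.6 and 21.9 in 1D5 and 11.9, 12.3 and 15.3 in FL, a difference of 0.77 ± 0.10 (SE; adjusted p = 2.43e-06), while its paralogue RRM2 was lower, at -0.46 ± 0.09. TK1, the thymidine kinase of dividing cells, was lower, at -0.55 ± 0.09, and 3 of the 9 markers of dividing cells were also lower and 1 higher. The calls of RRM2 and TK1 were lost when libraries were scaled to an equal total. DTYMK, thymidylate kinase, DUT, which removes dUTP, and SAMHD1, which degrades deoxynucleotides, were higher by 0.17 to 0.49, calls that median-of-ratios scaling removed, with DTYMK and DUT turning below 0. The calls of DUT and SAMHD1 were also lost when any 1 of several libraries was left out. RRM1, TYMS and DCK were not called in both clones.

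Salvage genes moved in both directions at day 4, with 4 of 9 higher and 2 lower, beside 51.2% and 14.3% of all genes. APRT had 244, 237 and 222 TPM-like units in the 1KI9 libraries, 210.2, 249 and 212 in 1D5 and 153, 152 and 136 in FL, a difference of 0.64 ± 0.06 (SE; adjusted p = 5.61e-08). HPRT1, which salvages hypoxanthine and guanine, had 52.4, 50.4 and 53.2 TPM-like units in the 1KI9 libraries, 42.3, 43.0 and 45.4 in 1D5 and 33.1, 35.0 and 34.7 in FL, a difference of 0.46 ± 0.06 that was lost under median-of-ratios scaling. ADK, adenosine kinase, was higher by 0.64 ± 0.06. FL was thus lowest for the salvage enzymes of adenine, adenosine, hypoxanthine and guanine on the deposited scale. NME1, a nucleoside diphosphate kinase, had 113, 114 and 108 TPM-like units in the 1KI9 libraries, 98.6, 106 and 89.9 in 1D5 and 65.2, 63.9 and 65.8 in FL, a difference of 0.68 ± 0.06 (SE; adjusted p = 1.11e-08).

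The pair that ran against this were GUK1 and NT5C3A. GUK1, which phosphorylates GMP, at chr1:228139962-228148984, had 104, 94.2 and 91.0 TPM-like units in the 1KI9 libraries, 109, 121 and 111 in 1D5 and 225, 243 and 206 in FL. The lowest FL library was above the highest GATA1s library, and the difference was -1.09 ± 0.07 (SE; adjusted p = 9.65e-11). NT5C3A, at chr7:33014113-33062797, had 25.5, 24.7 and 24.0 TPM-like units in the 1KI9 libraries, 23.0, 26.1 and 24.6 in 1D5 and 35.8, 37.8 and 40.4 in FL. The clones overlapped each other and lay below FL, with a difference of -0.60 ± 0.07 (SE; adjusted p = 7.97e-07). All 8 erythroid markers were also lower in both clones at day 4, and their part in these differences was not tested. UCK2, NME2 and CMPK1 had mean differences of 0.09, 0.03 and 0.07 and were not called.

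**Figure D3:**
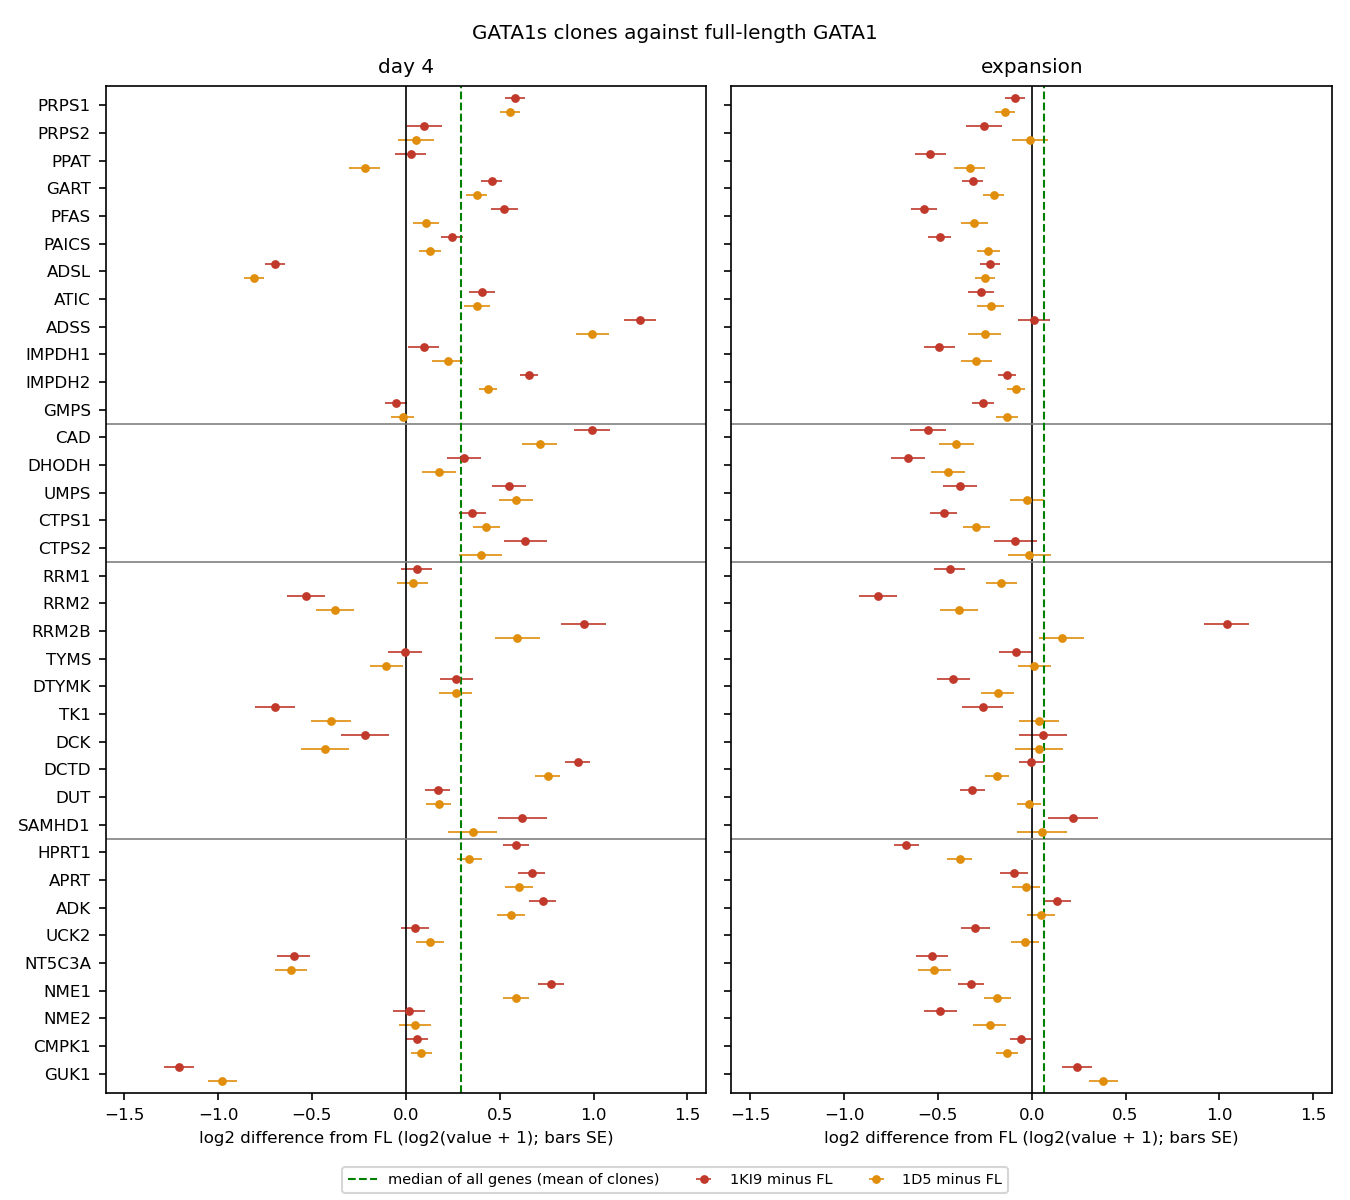
Log2 difference from FL of each member on log2(value + 1) in 1KI9 and 1D5, at day 4 on the left and in expansion on the right, with SE bars and a dashed line at the median of all genes. At day 4 points lie on both sides of the all-gene median of 0.29, with ADSS highest and GUK1 lowest. In expansion most points lie left of 0, and RRM2B of 1KI9 stands far to the right at 1.04.

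In expansion the picture was one of lower synthesis genes in the GATA1s clones. In both clones 13 of 36 members were lower and 1 higher, where 8.98% of all genes were lower and 17.5% higher. The median member difference was -0.20, against 0.06 over all genes, and 31 of 36 members had a negative mean difference. The 13 lower members were 7 of 12 purine genes, 3 of 5 pyrimidine genes, RRM2, HPRT1 and NT5C3A, and each was called lower under all 3 other scalings. Of the 6 GATA1s and 3 FL libraries, the ranges were separate with FL higher in 15 members and with FL lower in 1, against 10.1% and 18.9% of all genes. Without FL library 1, which stood apart in its globin share, 19 members were lower and 1 higher (11.5% and 15.3% of all genes), and without FL library 3, 11 were lower and none higher (6.77% and 14.7%). Under median-of-ratios scaling 22 were lower and none higher, with 15.5% and 14.7% of all genes. Among the 9 markers of dividing cells, 2 were lower and none higher in both clones. All 9 had a negative mean difference, with a median of -0.27, and their part in the member differences was not tested.

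**Figure D4:**
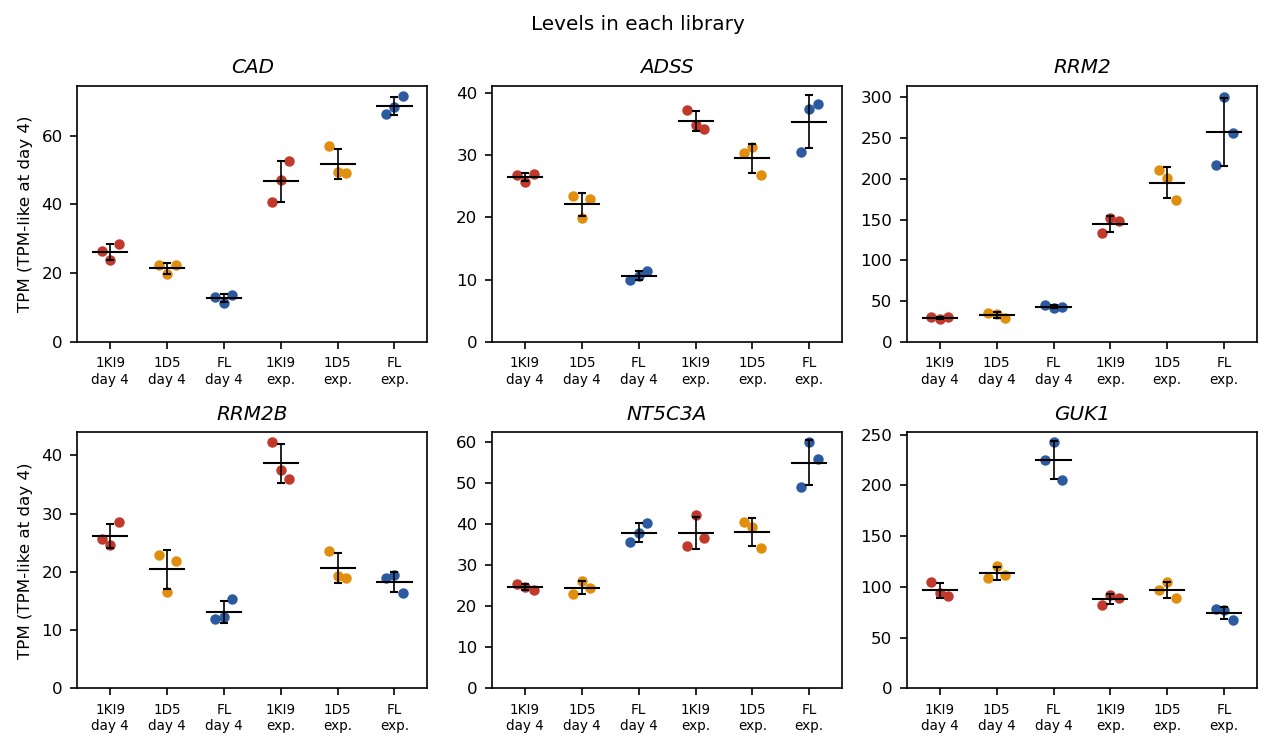
Level of CAD, ADSS, RRM2, RRM2B, NT5C3A and GUK1 in each library, in TPM in expansion and TPM-like units at day 4, with lines for the mean and bars for the SD of 3 libraries. CAD in FL is highest of the clones in expansion and lowest at day 4, GUK1 is highest in FL at day 4, and RRM2B is highest in 1KI9 in expansion.

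Purine genes below FL in expansion included most of the chain to inosine monophosphate. PFAS had 61.6, 62.1 and 69.8 TPM in the 1KI9 libraries, 79.5, 74.5 and 79.7 in 1D5 and 87.2, 104 and 98.7 in FL, and GATA1s libraries were all below FL, with a difference of -0.44 ± 0.06 (SE; adjusted p = 8.30e-06). GART had 145, 163 and 163 TPM in the 1KI9 libraries, 174, 169 and 166 in 1D5 and 182, 203 and 201 in FL, a difference of -0.26 ± 0.05. ATIC had 127, 149 and 157 TPM in the 1KI9 libraries, 146, 158 and 144 in 1D5 and 161, 172 and 188 in FL, a difference of -0.24 ± 0.06 whose call was lost without FL library 3 or without 1D5 library 1 or 3. ADSL had 152, 159 and 162 TPM in the 1KI9 libraries, 163, 160.1 and 142 in 1D5 and 182, 183 and 187 in FL. It was below FL in all GATA1s libraries, with a difference of -0.23 ± 0.05, a smaller gap than at day 4. PPAT, the first committed enzyme, PAICS, which carries consecutive activities of the chain, and IMPDH1 were lower, with differences of -0.44, -0.36 and -0.39, the last of these not called without FL library 3.

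The divergent neighbours PPAT and PAICS, whose shared upstream stretch is shown above, were both lower in expansion and neither was called in both clones at day 4. IMPDH2 had 475, 488 and 519 TPM in the 1KI9 libraries, 509, 537 and 486 in 1D5 and 531, 541 and 552 in FL. PRPS1 had 78.7, 83.5 and 82.8 TPM in the 1KI9 libraries, 79.5, 76.6 and 79.9 in 1D5 and 79.5, 91.2 and 90.8 in FL. ADSS had 37.3, 34.9 and 34.3 TPM in the 1KI9 libraries, 30.3, 31.3 and 26.8 in 1D5 and 30.4, 37.4 and 38.2 in FL. None of these was called in both clones, and the ranges of the GATA1s clones and FL overlapped in each. GMPS and PRPS2 were also not called.

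In the pyrimidine set, CAD had 40.6, 47.1 and 52.5 TPM in the 1KI9 libraries, 57.0, 49.5 and 49.1 in 1D5 and 66.3, 68.3 and 71.5 in FL. Here FL was the highest clone, unlike at day 4, and the difference was -0.48 ± 0.08 (SE; adjusted p = 8.87e-05). DHODH had 12.6, 11.8 and 12.1 TPM in the 1KI9 libraries, 15.8, 12.6 and 14.6 in 1D5 and 18.9, 20.6 and 20.0 in FL, a difference of -0.55 ± 0.08 (SE; adjusted p = 1.26e-05). CTPS1 had 38.9, 41.7 and 45.0 TPM in the 1KI9 libraries, 46.2, 44.8 and 50.8 in 1D5 and 54.4, 56.7 and 63.8 in FL, a difference of -0.38 ± 0.06. UMPS had 51.4, 57.6 and 52.9 TPM in the 1KI9 libraries, 66.9, 69.98 and 71.3 in 1D5 and 64.8, 73.7 and 73.5 in FL and was lower in 1KI9 but not in 1D5. CTPS2 was not called.

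Of the deoxynucleotide genes, RRM2 alone passed in both clones in expansion and was lower, at -0.60 ± 0.09 (SE; adjusted p = 1.50e-05). Its levels were 134 to 152 TPM in 1KI9, 174 to 211 TPM in 1D5 and 217 to 300.5 TPM in FL. RRM2B had 42.4, 37.5 and 35.99 TPM in the 1KI9 libraries, 23.6, 19.3 and 18.9 in 1D5 and 19.0, 19.5 and 16.4 in FL. It was higher in 1KI9, by 1.04 ± 0.12, and not called in 1D5, at 0.16 ± 0.12. DCTD had 54.6, 54.9 and 60.0 TPM in the 1KI9 libraries, 49.3, 53.1 and 46.6 in 1D5 and 51.0, 57.6 and 61.6 in FL, with overlapping ranges and no call in both clones.

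In salvage, HPRT1 had 60.5, 61.7 and 65.9 TPM in the 1KI9 libraries, 73.6, 80.8 and 75.3 in 1D5 and 88.1, 106 and 107 in FL. FL was highest in every library, by contrast with day 4, and the difference was -0.53 ± 0.06 (SE; adjusted p = 6.74e-07). NT5C3A had 34.6, 42.2 and 36.6 TPM in the 1KI9 libraries, 40.7, 39.3 and 34.3 in 1D5 and 49.2, 60.1 and 55.8 in FL, and it was lower, at -0.52 ± 0.07 (SE; adjusted p = 1.20e-05). GUK1 had 82.3, 92.2 and 88.7 TPM in the 1KI9 libraries, 97.0, 104 and 89.1 in 1D5 and 78.2, 76.8 and 67.3 in FL and was the single member called higher, by 0.31 ± 0.07. That call was lost under median-of-ratios scaling and without FL library 3 or 1KI9 library 2. APRT had 198, 236 and 224 TPM in the 1KI9 libraries, 233, 229.9 and 224 in 1D5 and 246, 227 and 228 in FL, with overlapping ranges. NME1 had 287, 319 and 306 TPM in the 1KI9 libraries, 339, 328 and 338 in 1D5 and 353, 363 and 431 in FL. NME1, with FL above all GATA1s libraries, passed in 1KI9, at -0.33 ± 0.07, and not in 1D5, at -0.18 ± 0.07.

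The difference of these differences was tested as an interaction, the mean of the clones minus FL at day 4 less the same in expansion. It was positive for 25 of 36 members and negative for 4, where 45.4% of all genes were positive and 19.7% negative (65.1% in either direction), and the member median was 0.55 against 0.21 over all genes. Positive here means that the level held up better between expansion and day 4 in the GATA1s clones than in FL. All 5 pyrimidine genes were positive, as were 9 of 12 purine genes, 7 of 9 salvage genes and kinases and 4 of 10 deoxynucleotide genes. Under the 3 other scalings, 19 positive and 2 negative calls were kept, the negative ones being ADSL and GUK1. Leaving out single libraries gave 26 to 32 member calls.

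The largest positive interactions were those of CAD at 1.33 ± 0.12 (SE; adjusted p = 3.38e-08), ADSS at 1.24 ± 0.11 (SE; adjusted p = 2.88e-08), HPRT1 at 0.99 ± 0.08 (SE; adjusted p = 2.32e-08), DCTD at 0.93 ± 0.08 (SE; adjusted p = 3.44e-08) and NME1 at 0.93 ± 0.09 (SE; adjusted p = 6.29e-08). DHODH, UMPS, CTPS1 and PFAS lay between 0.76 and 0.80, and PRPS1, GART, ATIC, IMPDH2 and APRT between 0.64 and 0.70. In CAD, HPRT1, GART, ATIC and CTPS1 the sign against FL was opposite in the conditions, with a call in both clones on each side on the deposited scale, and of these CAD kept both calls under every scaling. GUK1 changed sign in the other direction, called higher in expansion and lower at day 4, with the expansion call lost under median-of-ratios scaling. ADSS, DCTD, NME1, PRPS1 and APRT were close to FL or below it in expansion without a call in both clones and above it at day 4. GUK1, at -1.41 ± 0.10 (SE; adjusted p = 2.38e-09), and ADSL, at -0.52 ± 0.07 (SE; adjusted p = 2.52e-06), were the negative members that held under each scaling. TK1 and DCK were the other negative members. NT5C3A showed no call, with -0.08 ± 0.11, and neither did RRM2, RRM2B, TYMS, SAMHD1, GMPS or PRPS2. Globin genes took a larger share of the day-4 total in FL than in either GATA1s clone, and the part of this share in the positive interactions was not tested. The interaction medians of members and of all genes depended on the scaling. They were 0.50 and 0.18 with a common sum without globin and mitochondrially encoded genes. With median-of-ratios scaling they were 0.32 and 0.01, and with an equal total 0.80 and 0.46.

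Between the GATA1s clones, 15 of 36 members differed in expansion and 8 at day 4, near the 40.6% and 19.2% of all genes. In expansion 1KI9 was lower than 1D5 in 12 members and higher in 3, where 7.16% of all genes were lower and 33.4% higher, with a member median of -0.14 against 0.11 over all genes. The lower genes included RRM1, RRM2, DTYMK, TK1 and DUT, 5 of the 10 deoxynucleotide genes, with differences of -0.43 to -0.24, and PRPS2, PFAS, PAICS, UMPS, HPRT1, UCK2 and NME2, and 7 of the 9 markers of dividing cells were also lower in 1KI9. RRM2B was higher in 1KI9 by 0.88 ± 0.12 (SE; adjusted p = 1.44e-05), a call that held under each scaling, as did 11 of the 12 lower calls. The count fell to 8 without 1KI9 library 1, to 9 without 1D5 library 1 and to 8 when the fit used the compared libraries alone. At day 4 the clones differed in 8 members, 7 higher and 1 lower in 1KI9, against 12.5% and 6.69% of all genes. PPAT, PFAS, IMPDH2 and HPRT1 were higher under each scaling, by 0.22 to 0.42, but leaving out any single library of these groups brought the number of member calls to between 2 and 5.

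Isoform pairs differed in balance between the conditions, given here as ratios of levels per length (mean ± SD, n = 3). The ratio of IMPDH2 to IMPDH1 was 76.1 ± 2.54 in 1KI9, 58.9 ± 4.71 in 1D5 and 52.2 ± 3.30 in FL at day 4, and 16.6 ± 1.14 in 1KI9, 14.9 ± 0.374 in 1D5 and 12.8 ± 1.20 in FL in expansion. For PRPS1 over PRPS2 it was 10.2 ± 0.380 in 1KI9, 10.4 ± 0.879 in 1D5 and 7.32 ± 0.363 in FL at day 4, and 2.41 ± 0.0928 in 1KI9, 1.96 ± 0.208 in 1D5 and 2.15 ± 0.173 in FL in expansion. In both pairs the more abundant copy fell less, in every clone.

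RRM2 over RRM2B went the other way, with less of the S-phase subunit at day 4. At day 4 the ratio was 1.13 ± 0.0715 in 1KI9, 1.65 ± 0.353 in 1D5 and 3.32 ± 0.528 in FL, and in expansion 3.77 ± 0.537 in 1KI9, 9.52 ± 0.797 in 1D5 and 14.2 ± 2.39 in FL. In 1KI9 at day 4 the subunits were thus at nearly equal levels per length. CTPS1 over CTPS2 was 3.13 ± 0.475 in 1KI9, 4.05 ± 0.617 in 1D5 and 4.19 ± 0.341 in FL at day 4, and 4.82 ± 0.0765 in 1KI9, 5.19 ± 0.862 in 1D5 and 6.30 ± 0.588 in FL in expansion. NME2 over NME1 was 1.93 ± 0.119 in 1KI9, 2.25 ± 0.184 in 1D5 and 3.27 ± 0.145 in FL at day 4, and 1.56 ± 0.0333 in 1KI9, 1.71 ± 0.206 in 1D5 and 1.75 ± 0.148 in FL in expansion. NME1 and NME2 share a readthrough gene in the annotation that the table lists separately, so their split is uncertain, and the ratios are given with no test. Pseudogenes named after 12 of the 36 members are annotated, up to 8 for DUT, and RSEM divides reads among similar transcripts.

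**Figure D5:**
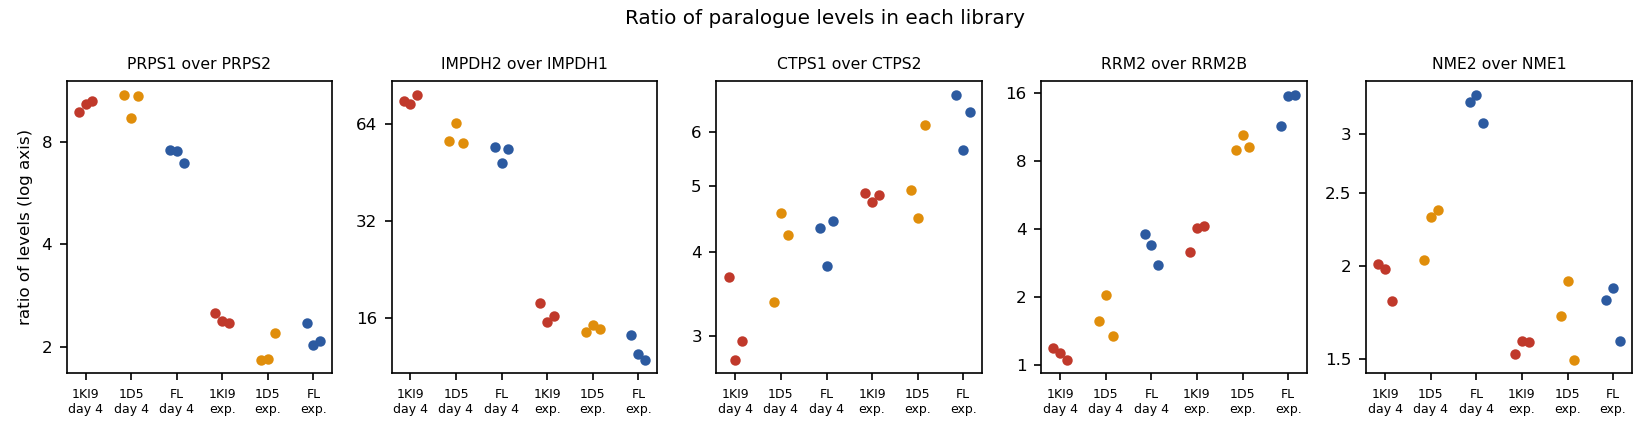
Ratio of the levels of 5 paralogue pairs in each library, on log axes, for 1KI9, 1D5 and FL at day 4 and in expansion, with 1 point per library. PRPS1 over PRPS2 and IMPDH2 over IMPDH1 are several-fold higher at day 4 in all clones, and RRM2 over RRM2B is lowest in 1KI9 and highest in FL in both conditions.

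Of 52 other genes of nucleotide metabolism and transport, 46 were in the table. In both clones at day 4, 25 of 40 tested were higher and 7 lower, beside 51.2% and 14.3% of all genes. In expansion 10 of 39 were higher and 3 lower, beside 17.5% and 8.98% of all genes. The largest difference at day 4 was in SLC29A1, the equilibrative nucleoside transporter of red cells, which had 63.9, 65.5 and 61.9 TPM-like units in the 1KI9 libraries, 83.7, 81.5 and 81.6 in 1D5 and 308, 307 and 302 in FL. FL stood far above both clones, and the difference was -2.06 ± 0.07 (SE; adjusted p = 4.04e-14). TK2, the mitochondrial thymidine kinase, had 26.5, 25.4 and 27.7 TPM-like units in the 1KI9 libraries, 27.2, 26.0 and 28.8 in 1D5 and 5.30, 5.77 and 6.28 in FL, a difference of 2.04 ± 0.10 (SE; adjusted p = 2.43e-12). TYMP, thymidine phosphorylase, NME3, MTAP, which recycles methylthioadenosine, and SLC29A2, a related transporter, were higher at day 4 by 1.00, 0.96, 0.85 and 0.83.

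In expansion the largest difference was in ADA, adenosine deaminase, which had 73.4, 68.8 and 75.9 TPM in the 1KI9 libraries, 33.6, 26.7 and 27.3 in 1D5 and 8.25, 8.25 and 6.58 in FL. The clones were fully separate, with 1KI9 above 1D5 and both above FL by 2.44 ± 0.07 (SE; adjusted p = 1.09e-14) on average. GMPR, which returns GMP to inosine monophosphate, had 206, 206 and 246 TPM in the 1KI9 libraries, 120.5, 122 and 144 in 1D5 and 60.6, 60.9 and 55.4 in FL, a difference of 1.49 ± 0.06 (SE; adjusted p = 1.17e-12). At day 4 both genes lay much nearer FL, with ADA at 0.49 ± 0.07 and GMPR at -0.06 ± 0.06, and ADA and GMPR were higher at day 4 than in expansion in FL by 3.19 ± 0.09 and 1.83 ± 0.07. TYMP, TK2 and NME3 were higher in expansion by 1.38, 0.91 and 0.74, and CMPK2, a mitochondrial nucleotide kinase, was lower, with a difference of -0.77. These 9 genes were the only ones of the list named, chosen as the largest called in each condition.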

How the data were processed

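RNA from 18 libraries was trimmed with Trim Galore 0.60, aligned with STAR 2.7 and quantified with RSEM 1.31 on hg38 (GRCh38.p12), per the submitters' processing notes, which give no order or settings. The authors deposited TPM for the expansion libraries. The day-4 columns hold a TPM-like signal that the authors deposited on a further scale; FL sums exceed those possible for TPM, and no source used here names the step. Gene coordinates are from GENCODE 29 (hg38).

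From these values, limma 3.58.1 in R 4.3.3 was fitted with a trend on log2(value + 1) for 11110 genes with at least 1 in at least 3 libraries, using 6 group means. All 36 members passed this filter. Adjusted p-values are Benjamini-Hochberg over all genes tested, with a threshold of 0.05, and a member called in both clones passed in 1KI9 and in 1D5 with 1 sign. Depth is unknown, so no counting error can be given. All members are named, and values in every library are given for those called with at least a 1.5-fold change against FL in each clone, between the GATA1s clones or in the interaction. Members and lists were chosen with earlier results of these data known. Alternatives were the pseudocount, the filter, 3 scalings, the libraries fitted, the replicate block and leaving out each library.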

Additional observations from a re-analysis of the deposited data

Results flagged for a closer look

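For 29 members and 7 other named nucleotide genes, the difference between the GATA1s clones and FL itself differed between day 4 and expansion. The values are the log2 interaction of limma on log2(value + 1), day 4 minus expansion, with Benjamini-Hochberg adjustment over all genes tested, in which 65.1% of all genes passed. Purine synthesis genes were PRPS1 at 0.69, PPAT at 0.34, GART at 0.68, PFAS at 0.76, PAICS at 0.55, ADSL at -0.52, ATIC at 0.64, ADSS at 1.24, IMPDH1 at 0.55 and IMPDH2 at 0.66. Those of pyrimidine synthesis were CAD at 1.33, DHODH at 0.80, UMPS at 0.77, CTPS1 at 0.77 and CTPS2 at 0.57. Deoxynucleotide genes were RRM1 at 0.35, DTYMK at 0.57, TK1 at -0.44, DCK at -0.37, DCTD at 0.93 and DUT at 0.34. Salvage genes and kinases were HPRT1 at 0.99, APRT at 0.70, ADK at 0.55, UCK2 at 0.26, NME1 at 0.93, NME2 at 0.39, CMPK1 at 0.17 and GUK1 at -1.41. The other genes were ADA at -1.95, MTAP at 1.12, GMPR at -1.55, TYMP at -0.38, TK2 at 1.14, SLC29A1 at -1.42 and SLC29A2 at 0.76. TYMP had low values at day 4, 1.6 to 1.72 in 1KI9, 2.13 to 2.28 in 1D5 and 0.32 to 0.65 in FL. On log2(value + 1) such values shrink its day-4 difference, so the sign of its interaction is uncertain. DCK and CMPK1 passed narrowly, each with an adjusted p of 0.045, and lost the call when any 1 of several libraries was left out, and UCK2 lost it without FL expansion library 3.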

How the results depend on the processing

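Of the member counts, those against FL at day 4 (23), the interaction (29) and day 4 against expansion (36 in FL, 34 in 1D5, 34 in 1KI9) stayed within 1.5 times under every alternative, although their split by direction moved with the scaling. The other counts moved, and the cause was not tested. In expansion the count in both clones was 14, and 22 with median-of-ratios scaling. Between the clones in expansion it was 15, and 27 with that scaling and 8 with only the compared libraries. Between the clones at day 4 it was 8, and 5 with a pseudocount of 0.1, 4 with no filter and 13 after rescaling to an equal total. Leaving out single libraries gave 21 to 24 calls in both clones at day 4, 11 to 20 in expansion, 2 to 5 between the clones at day 4, 8 to 14 between them in expansion, 36 in FL, 33 to 34 in 1D5 and 34 in 1KI9 between conditions, and 26 to 32 for the interaction.

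Under median-of-ratios scaling the day-4 difference from FL turned to -0.23 for PRPS2, -0.17 for PAICS, -0.30 for RRM1, -0.075 for DTYMK, -0.18 for DUT, -0.26 for UCK2, -0.33 for NME2 and -0.28 for CMPK1, and also to -0.15 for IMPDH1, -0.050 for DHODH and -0.025 for PFAS. With it, ADSL between the clones in expansion turned to -0.15, ADSL and CMPK1 between conditions in FL to 0.17 and 0.049, HPRT1 in 1KI9 to 0.029, and the CMPK1 interaction to -0.067. With a common sum without globin and mitochondrially encoded genes, the difference between conditions turned to 0.084 for ADSL in FL, to 0.27 for APRT, 0.28 for RRM2B and 0.10 for CMPK1 in 1D5, and to 0.024 for IMPDH2, 0.024 for DCTD, 0.088 for HPRT1 and 0.057 for CMPK1 in 1KI9. After rescaling to an equal total, the day-4 difference of GMPS turned to 0.25 and the interaction of TYMS to 0.27. Other differences that were not called also changed sign.

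Replicate numbers were not taken to pair the samples. Of 45 same-numbered pairs, 10 had a correlation over 0.1, in a range of -0.152 to 0.429. The highest was that of 1D5 and 1KI9 at day 4, replicate 2. Libraries of different numbers were not compared, so these values cannot decide whether some groups were paired. With the replicate block the counts were 15 in expansion and 23 at day 4 in both clones, 16 and 7 between the clones in expansion and at day 4, 36 in FL, 34 in 1D5 and 34 in 1KI9 between conditions, and 28 for the interaction.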
